A study of Homo sapiens with 8 samples.

Results

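Metallothioneins and the genes that set cellular zinc were followed in human HEK293T cells, a line from embryonic kidney. The set held 8 genes, taken by name: the metallothioneins MT1E, MT1F, MT1G, MT1M, MT1X and MT2A, the zinc exporter SLC30A1 (also called ZnT1) and the transcription factor MTF1. They are 8 of the 60652 gene rows counted. Of the 8, 4 had enough reads to be tested (MT2A, MT1F, SLC30A1 and MTF1), and the other 4 (MT1E, MT1G, MT1M and MT1X) did not pass the filter on low counts.

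The cells carried a TRE3G-GFP reporter, with GFP under a tet-responsive promoter, and were grown with 10% serum. All received plasmids encoding a guide RNA and a catalytically dead Cas protein fused to the VPR activation domains, and were collected by sorting for mCherry and BFP after 2 days, so every group, controls included, holds transfected cells that make an activator. The 4 groups had 2 libraries each: dCasMINI-VPR_sgNT and dCas12a-VPR_crNT with a non-targeting guide, and dCasMINI-VPR_sgTet and dCas12a-VPR_crTet with a guide named for Tet. Below they are called sgNT, crNT, sgTet and crTet. The labels do not say whether replicates were separate transfections, so p-values measure the spread between these libraries, which may be technical. The labels give no batch either, so the Cas protein and anything else that separates the sg from the cr libraries cannot be told apart.

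Metallothioneins are small, cysteine-rich proteins that bind zinc and copper and buffer their free levels. MTF1 senses zinc through its zinc fingers and binds metal response elements, short motifs in the promoters of metallothionein genes and of SLC30A1. SLC30A1 sits in the plasma membrane and carries zinc out of the cell. Most SLC30 family proteins move zinc out of the cytosol, and most SLC39 (ZIP) family proteins move it in.

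Promoters of MT2A, MT1X and SLC30A1 are shown because they hold the motif that MTF1 reads. Each is the 250 bases before the RefSeq start of the gene (build GRCh38.p14), 5′ to 3′ on the gene's strand. Capitals mark the core of the metal response element, searched as TGCACNC and TGCGCNC on both strands, so that a match on the other strand reads GNGTGCA or GNGCGCA. None of the matches overlap.
MT2A, chr16:56608334-56608583, plus strand: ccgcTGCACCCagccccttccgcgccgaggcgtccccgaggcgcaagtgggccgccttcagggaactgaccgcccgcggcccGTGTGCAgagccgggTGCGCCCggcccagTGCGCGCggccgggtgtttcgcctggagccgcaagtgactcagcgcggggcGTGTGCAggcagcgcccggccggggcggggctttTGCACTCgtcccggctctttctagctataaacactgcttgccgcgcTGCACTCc
MT1X, chr16:56682220-56682469, plus strand: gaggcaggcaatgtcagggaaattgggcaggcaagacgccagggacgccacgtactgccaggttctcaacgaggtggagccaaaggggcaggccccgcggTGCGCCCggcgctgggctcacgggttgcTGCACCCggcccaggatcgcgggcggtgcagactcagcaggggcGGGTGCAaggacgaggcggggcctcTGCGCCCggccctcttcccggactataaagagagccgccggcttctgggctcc
SLC30A1, chr1:211579162-211579411, minus strand: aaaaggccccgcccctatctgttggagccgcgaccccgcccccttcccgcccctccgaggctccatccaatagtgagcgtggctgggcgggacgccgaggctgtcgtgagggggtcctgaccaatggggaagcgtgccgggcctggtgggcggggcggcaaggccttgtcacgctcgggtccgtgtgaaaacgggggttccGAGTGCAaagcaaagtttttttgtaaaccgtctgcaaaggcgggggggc
The MT2A window held 7 matches, and 11 of the 35116 RefSeq promoters of the same length (0.0313%) held 7 or more. In MT2A the match nearest the start lay 8 to 2 bases before it, and the next 54 to 48 bases before it. The MT1X window held 4 matches, a number reached in 0.370% of promoters. The MT2A and MT1X windows also held TATAAA, as did 6.80% of all promoters. SLC30A1 held 1 match, 49 to 43 bases before the start, and 24.8% of promoters held at least 1. The MTF1 window (chr1:37859593-37859842, minus strand) held none, which says only that these letters are not in it. RefSeq promoters were matched for these 4 genes, and not for MT1E, MT1F, MT1G and MT1M.

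Libraries held between 17474404 and 21081942 reads in genes, so that 3 reads in a library correspond to between 0.145 and 0.170 CPM, the usual unit of reads scaled to the library's total. That floor covers counting error only, since the reads carry no molecular identifiers. The reporter followed the labels: EGFP stood at 3.82 ± 0.846 CPM (mean ± SD, n = 2, as for all group values below) in sgNT, 1006 ± 123 in sgTet, 2.71 ± 0.0760 in crNT and 755 ± 68.1 in crTet. All 6 HEK293T markers had reads, with a summed level of 1181 to 1469 CPM by library, while PTPRC of blood cells and UMOD of mature kidney tubules had none in any library. The unmapped share of reads was 14.4% and 12.7% with crNT and 8.32% to 9.62% in the other 6 libraries.

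MT2A was the main metallothionein transcript of these cells. The 17 metallothionein genes and pseudogenes of the files held 7494 reads over all 8 libraries, of which MT2A held 6734 (89.9%) and MT1F 702 (9.37%). The MT2A share lay between 88.9% and 91.0% in the 4 groups. MT1X followed with 38 reads (exact 95% Poisson interval 26.9 to 52.2, counting error only) and MT1HL1 with 8. MT1E had 5 reads, MT1G 1 and MT1M none, where 3 reads over all libraries would be 0.0190 CPM. The brain metallothionein MT3 had 1 read, and MT4, MT1A, MT1B and MT1H had none. The genes lie side by side: 16 of the 17 are on chromosome 16 between bases 56565049 and 56684196 (GENCODE 29, hg38), and 8 of those 16 had no read in any library.

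**Figure D1:**
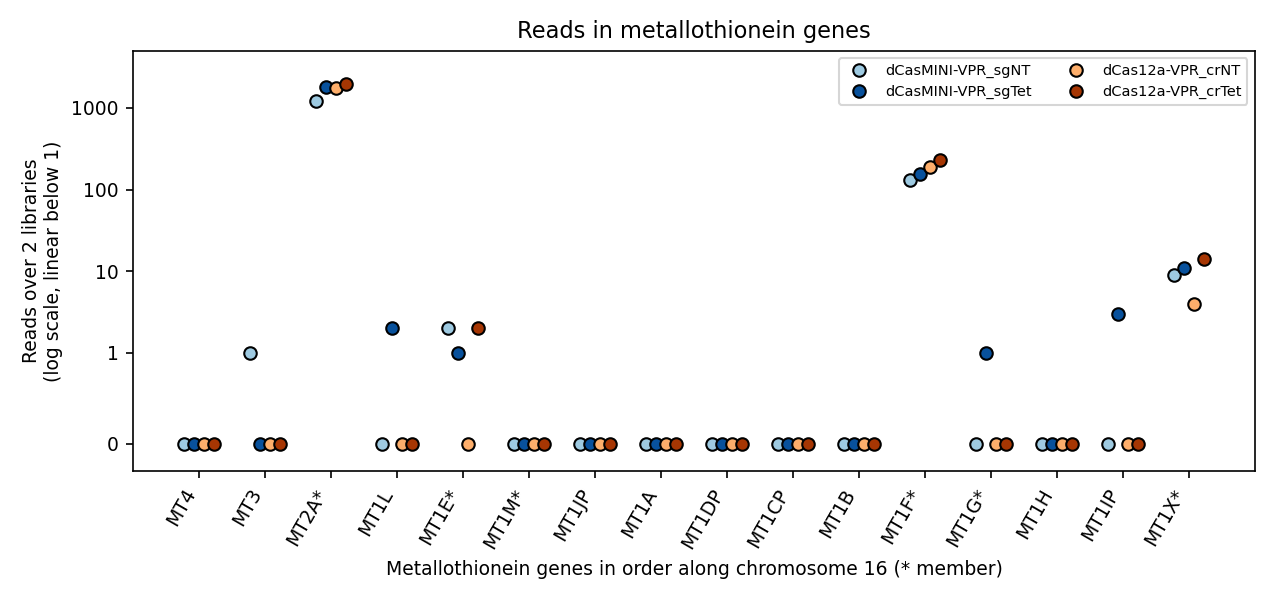
Reads summed over the 2 libraries of each group (vertical axis, log scale, linear below 1) for the 16 metallothionein genes of chromosome 16 in genome order, with colours for the groups and asterisks for the genes followed here. MT2A, with 1221 to 1953 reads per group, and MT1F, with 131 to 227, stand far above MT1X, with 4 to 14, and 8 genes lie at 0 in all groups.

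The 2 expressed genes sit apart in the cluster. MT2A (ENSG00000125148.7) spans 56608199 to 56609497 on the plus strand, and MT1F (ENSG00000198417.7) spans 56657694 to 56660698 on the plus strand. Between them lie MT1E (ENSG00000169715.15, 56625475 to 56627112, plus) and MT1M (ENSG00000205364.4, 56632233 to 56633986, plus), which were at or under 2 reads in every library. MT1G (ENSG00000125144.14, 56666731 to 56668065, minus) and MT1X (ENSG00000187193.9, 56682424 to 56684196, plus) follow MT1F. The coding parts of these genes are alike, and reads that fit several genes are not counted in any. Of the 50-base stretches of the longest transcript, 14.7% for MT1X, 14.3% for MT1G, 10.6% for MT1E, 7.05% for MT1M, 4.68% for MT2A and 0.0656% for MT1F also occurred in a transcript of another gene. For 100-base stretches the share was 0 in all of these but MT1X, with 7.68%. Those MT1X stretches were shared with 1 gene, which was not a metallothionein by name. The read length is not given in the sources used here, so low counts of MT1X, MT1G and MT1E are the less certain ones.

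Compared per kilobase of exons, MT2A was the highest of the genes followed in all 4 groups. Its level was 25.3 CPM per kb in sgNT, 34.0 in sgTet, 34.0 in crNT and 37.6 in crTet. SLC30A1 came next with 8.18, 8.30, 10.1 and 8.73 CPM per kb. MTF1 (2.20 to 2.43 CPM per kb by group) and MT1F (1.89 to 3.02) could not be put in order: MTF1 was the higher in sgNT and sgTet, MT1F in crNT and crTet, and with the length of the longest transcript MT1F came to 2.27 to 3.62 against 2.21 to 2.44 for MTF1. MT1X was lowest of the genes with reads in all libraries, at 0.0561 to 0.198 CPM per kb.

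MT2A, the most abundant metallothionein, was lowest in the sgNT libraries. Its levels were 33.0 and 32.6 CPM for sgNT, 49.5 and 38.9 for sgTet, 41.7 and 46.8 for crNT, and 51.1 and 46.7 for crTet. The sgNT libraries lay below the other 6, and the other 3 groups overlapped one another. Of all 16606 genes tested, 3308 had their lowest group mean in sgNT. How many of those also had sgNT libraries apart from the other 6 was not counted. The group means were 32.8 ± 0.262, 44.2 ± 7.45, 44.2 ± 3.62 and 48.9 ± 3.11 CPM in the same order. In bulk RNA such as this, fewer cells with the transcript and less transcript per cell cannot be told apart.

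**Figure D2:**
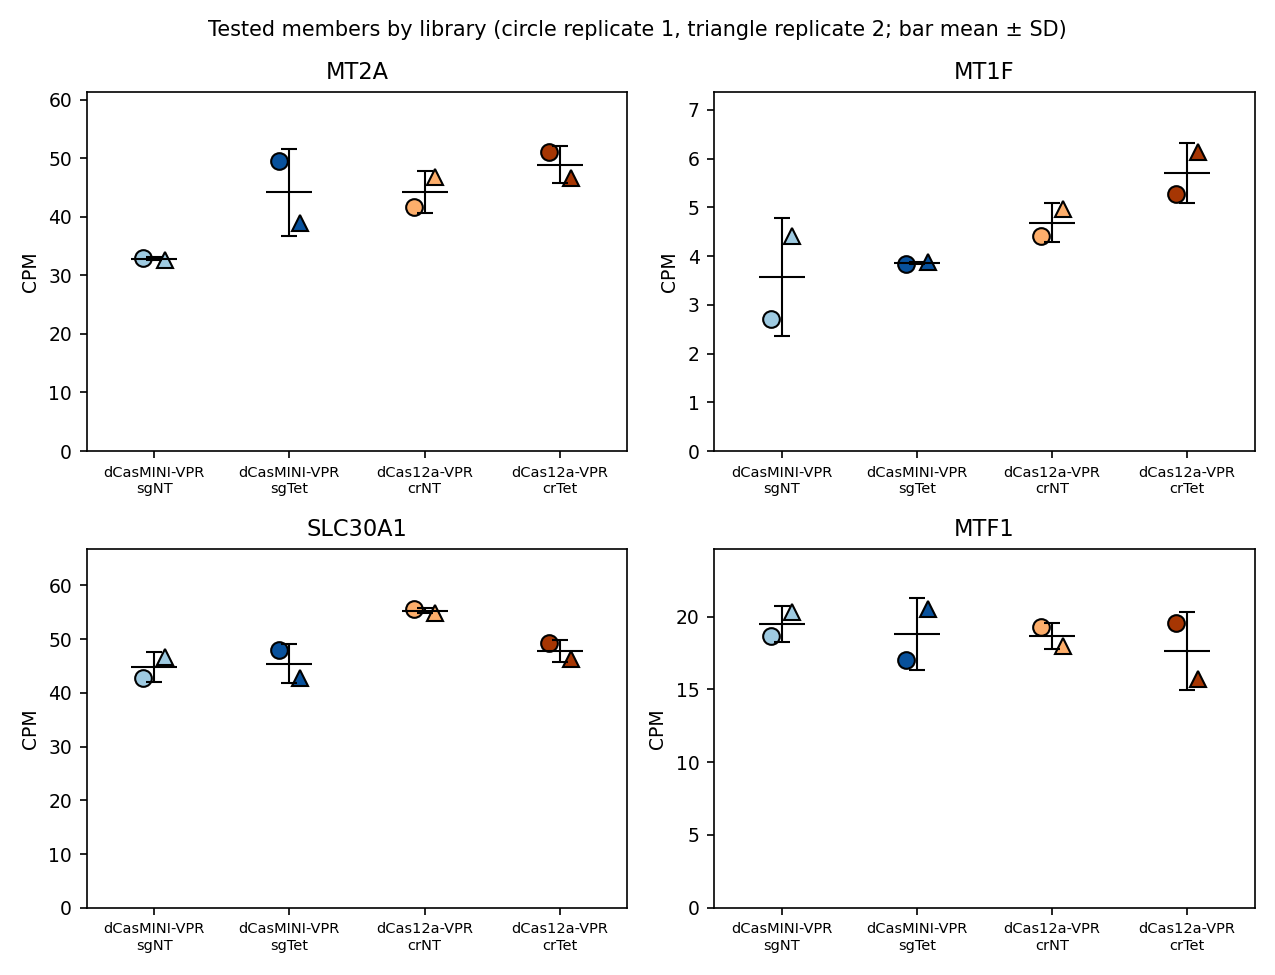
CPM (vertical axis, from 0) of MT2A, MT1F, SLC30A1 and MTF1 in each library, by group, with circles for replicate 1, triangles for replicate 2 and bars for the mean and SD of 2 libraries. MT2A is lowest in sgNT (32.6 and 33.0), SLC30A1 highest in crNT (54.9 and 55.7), and MTF1 overlaps between all groups.

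Comparing the Cas proteins with non-targeting guides, sgNT minus crNT, MT2A was lower with dCasMINI-VPR. The log2 fold change was -0.43 ± 0.12 (SE), a fold of 0.742, with an adjusted p of 0.0158 (edgeR quasi-likelihood test, Benjamini-Hochberg over all 16606 genes tested). It was the only call among the 4 genes tested in this comparison, in which 7.68% of all genes were called and 3.6% of all genes were called lower. DESeq2 also called 1 of the 4, and 2 of the 4 had an unadjusted p under 0.05. Leaving out sgNT replicate 1 (adjusted p = 0.0855), sgNT replicate 2 (0.175) or crNT replicate 2 (0.248) ended the MT2A call, as did reverse-strand counts (0.0656).

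With the Tet guides, sgTet minus crTet, MT2A did not pass the test (-0.15 ± 0.11, adjusted p = 0.528), and the libraries of the groups overlapped. None of the 4 genes was called there by edgeR or DESeq2, where 4.28% of all genes were called, and 1 of the 4, MT1F, had an unadjusted p under 0.05.

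Whether a Tet guide, directed at the reporter, moved these genes was asked within each Cas protein. With dCasMINI-VPR, sgTet minus sgNT, MT2A had a log2 fold change of 0.43 ± 0.11, a fold of 1.35, which missed the threshold (adjusted p = 0.0705). Its libraries did not overlap between the groups, which was so for 40.9% of all genes. No gene of the 4 was called by edgeR, against 0.795% of all genes. DESeq2 called none of the 3 for which it gave an adjusted p (it gave none for MT1F), and MT2A was the 1 with an unadjusted p under 0.05.

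The MT2A value turned on the sgTet libraries, of which replicate 1 stood at 49.5 and replicate 2 at 38.9 CPM. Without sgTet replicate 2 the difference was 0.59 (adjusted p = 4.8e-04), and without sgTet replicate 1 it was 0.25 (adjusted p = 0.652). With no filter on low counts it passed the test (0.42, adjusted p = 0.0209). Across all genes the sgTet libraries also differed most from each other, with a chi-square per degree of freedom of 13.8 against 3.19 to 6.92 in the other groups. The part of that in the MT2A value was not tested beyond these leave-outs.

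With dCas12a-VPR, crTet minus crNT, MT2A differed by 0.14 ± 0.11 (adjusted p = 0.521), with overlapping libraries. None of the 4 genes was called there by edgeR, against 6.32% of all genes, and none of the 3 with an adjusted p by DESeq2 (all but MT1F), and SLC30A1 was the 1 with an unadjusted p under 0.05. The difference of the guide effects on MT2A between the Cas proteins did not pass the test (0.28 ± 0.16, adjusted p = 0.395), although without sgTet replicate 2 it passed (0.45, adjusted p = 0.0449). No gene of the 4 was called for that difference by edgeR, against 1.35% of all genes, nor any of the 3 with an adjusted p by DESeq2 (all but MT1F), and none had an unadjusted p under 0.05. The comparisons share groups (sgNT enters both MT2A differences above, with opposite sign), so they are not separate evidence.

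**Figure D3:**
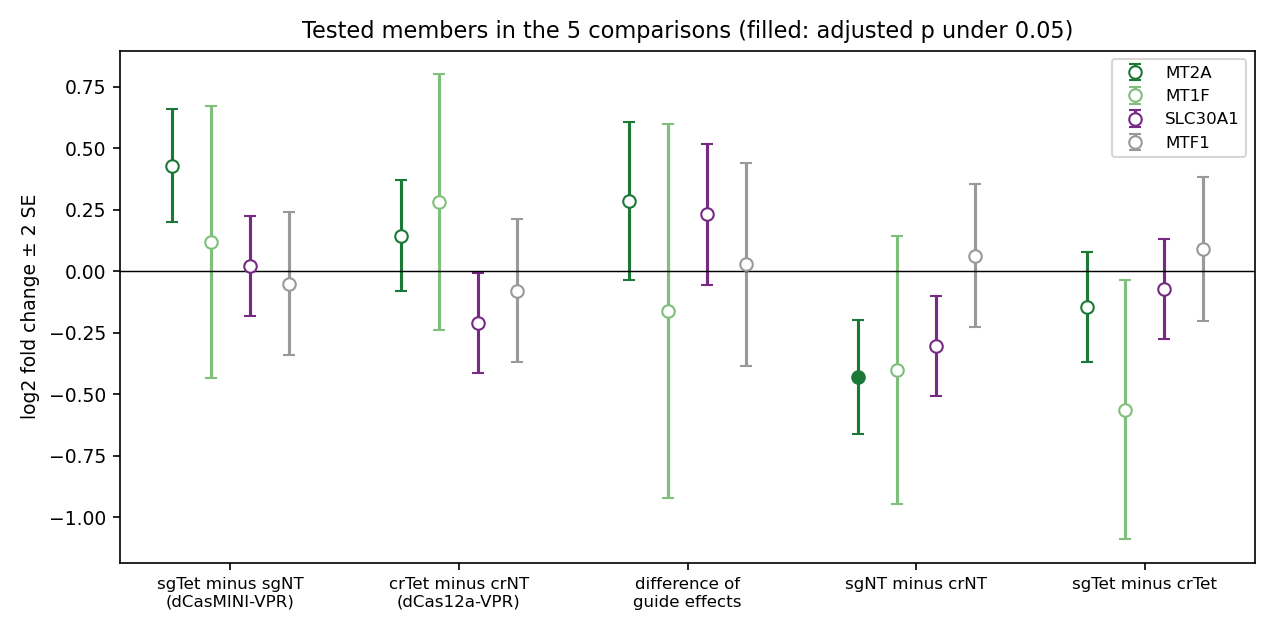
Log2 fold change (vertical axis, bars ± 2 SE) of MT2A, MT1F, SLC30A1 and MTF1 in the 5 comparisons on the horizontal axis, filled where the adjusted p was under 0.05. The 1 filled point is MT2A in sgNT minus crNT, at -0.43, and the MT1F bars are the widest.

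MT1F, the metallothionein with the most reads after MT2A, passed no test. Its levels were 2.71 and 4.42 CPM for sgNT, 3.85 and 3.87 for sgTet, 4.40 and 4.97 for crNT, and 5.26 and 6.14 for crTet. These rest on 53 to 119 reads per library. The crTet libraries were the highest and lay above all 6 others, and sgNT overlapped with sgTet and crNT. The highest group mean was in crTet for 22.7% of all genes tested, and the share with libraries apart from all others was not counted.

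The difference between sgTet and crTet was the furthest from 0 for MT1F (-0.56 ± 0.26, adjusted p = 0.241). These groups did not overlap, as for 44.5% of all genes, and ± 2 SE ran from -1.09 to -0.03. For sgNT minus crNT it was -0.40 ± 0.27 (adjusted p = 0.430). The guide effects were 0.12 ± 0.28 with dCasMINI-VPR (adjusted p = 0.903) and 0.28 ± 0.26 with dCas12a-VPR (adjusted p = 0.609), and their difference was -0.16 ± 0.38 (adjusted p = 0.880). At this depth, a guide effect with dCasMINI-VPR between -0.43 and 0.67 lay within 2 SE.

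MT1X, another metallothionein with metal response element cores in its promoter, was near the floor. It had 6 and 3 reads per library for sgNT, 6 and 5 for sgTet, 1 and 3 for crNT, and 7 and 7 for crTet. The crTet libraries held the most reads and the crNT libraries 4 in all.

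The ratio of crTet to crNT for MT1X was 3.497 (14 against 4 reads, exact 95% counting interval 1.10 to 14.6, which leaves out the spread between libraries). In a fit of 31622 genes with no filter on low counts it was not called (edgeR, adjusted p = 0.791). The ratios of sgTet to sgNT (1.12, interval 0.421 to 3.05), sgNT to crNT (2.41, 0.673 to 10.7) and sgTet to crTet (0.770, 0.316 to 1.83) had intervals that hold 1.

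SLC30A1, the plasma membrane zinc exporter (ENSG00000170385.10, chromosome 1, 211571568 to 211578742, minus strand), was highest in the crNT libraries. Its levels were 42.8 and 46.8 CPM for sgNT, 48.1 and 42.8 for sgTet, 55.7 and 54.9 for crNT, and 49.3 and 46.3 for crTet. The crNT libraries lay above the other 6, which overlapped, and the group means were 44.8 ± 2.77, 45.4 ± 3.69, 55.3 ± 0.523 and 47.8 ± 2.09 CPM. Of all genes tested 29.8% had their highest group mean in crNT. How many of those also had crNT libraries apart from the other 6 was not counted. The crNT libraries are also those with the largest share of unmapped reads, 14.4% and 12.7%, and the part of that in the level was not tested.

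No comparison called SLC30A1. Between sgNT and crNT it differed by -0.30 ± 0.10 (adjusted p = 0.0595), with no overlap, as for 55.2% of all genes. It passed in a fit of those 4 libraries alone (adjusted p = 0.00594), without sgTet replicate 1 (0.017) or sgTet replicate 2 (0.0162), and with a replicate block (0.0498). Between crTet and crNT it differed by -0.21 ± 0.10 (adjusted p = 0.238), also with no overlap, as for 52.6% of all genes. With dCasMINI-VPR the guide effect was 0.02 ± 0.10 (adjusted p = 0.955), the difference of the guide effects 0.23 ± 0.14 (adjusted p = 0.447), and sgTet minus crTet -0.07 ± 0.10 (adjusted p = 0.766).

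MTF1, the zinc-sensing factor (ENSG00000188786.10, chromosome 1, 37809567 to 37859620, minus strand), overlapped between all groups. Its levels were 18.6 and 20.3 CPM for sgNT, 17.04 and 20.5 for sgTet, 19.3 and 18.0 for crNT, and 19.5 and 15.7 for crTet. Group means lay between 17.6 ± 2.70 in crTet and 19.5 ± 1.21 in sgNT. Its 5 log2 differences lay between -0.08 (crTet minus crNT, ± 0.15, adjusted p = 0.829) and 0.09 (sgTet minus crTet, ± 0.15, adjusted p = 0.803), and ± 2 SE reached from -0.37 to 0.21 for the former and from -0.20 to 0.38 for the latter. Transcript levels do not report the zinc-bound state by which MTF1 acts.

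Over the 4 tested genes the median log2 difference was -0.35 for sgNT minus crNT and -0.11 for sgTet minus crTet, where the median of all genes was 0.00013 and -0.0024. TMM scaling brings the median of all genes near 0, so it does not show how far a median of 4 genes strays. The 4 did not move alike: for sgNT minus crNT MT2A, MT1F and SLC30A1 lay below 0 and MTF1 at 0.06 ± 0.15 (SE). For the guide effects it was 0.07 with dCasMINI-VPR and 0.03 with dCas12a-VPR, against 0.00028 and 0.0080 over all genes.

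Of the other genes listed as zinc exporters 9 of 10 were tested, and of those listed as importers 11 of 14. Most had their highest group mean in crNT, as SLC30A1 did: 5 of the 9 exporters and 8 of the 11 importers, where 29.8% of all genes tested did. Among these genes, 4 were called lower in sgNT than in crNT and none higher. Of all genes 3.6% were called lower there, and 7.68% in either direction. With dCas12a-VPR 2 were called lower with the Tet guide and none higher (6.32% of all genes were called, in either direction). Each of these calls was lost in some of the alternatives given below.

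SLC30A6, which forms the Golgi zinc transporter with SLC30A5, had its guide effects on opposite sides of 0. It stood at 52.3 and 47.4 CPM for sgNT, 65.5 and 60.1 for sgTet, 59.5 and 67.3 for crNT, and 51.4 and 53.3 for crTet. The guide effects were 0.33 (adjusted p = 0.111) and -0.28 (adjusted p = 0.0882), and their difference passed (0.61 ± 0.14, adjusted p = 0.0201). SLC30A6 was also lower in sgNT than in crNT (-0.35 ± 0.10, adjusted p = 0.0240). The call on the difference was lost without sgNT replicate 2 (adjusted p = 0.224), crNT replicate 1 (0.0639), crNT replicate 2 (0.191) or crTet replicate 1 (0.0725), with forward-strand counts (0.0691) and after removal of the length and GC trend (0.0615). The call on sgNT minus crNT was lost without sgNT replicate 2 (0.357), crNT replicate 1 (0.0598) or crNT replicate 2 (0.376), and with forward-strand (0.0613) or reverse-strand counts (0.0651).

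SLC30A7, a zinc transporter of the secretory pathway, fell with the Tet guide of dCas12a-VPR, from 50.3 and 47.0 CPM in crNT to 39.2 and 35.2 in crTet (-0.39 ± 0.11, adjusted p = 0.0305). The call was lost without any 1 of those 4 libraries (adjusted p = 0.364 and 0.115 without crNT replicates 1 and 2, 0.0536 and 0.260 without crTet replicates 1 and 2) and with forward-strand counts, where the difference was -0.23 (0.382).

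SLC39A9, a ZIP transporter, was called in 3 comparisons, 2 of which hung on how strands were counted. It stood at 100.01 and 87.3 CPM for sgNT, 98.1 and 98.1 for sgTet, 125.6 and 122.6 for crNT, and 98.3 and 92.2 for crTet, so that crNT lay above the rest. The sgNT and crNT libraries did not overlap for 55.2% of all genes, and those of crTet and crNT for 52.6%. SLC39A9 fell in crTet relative to crNT (-0.38 ± 0.08, adjusted p = 0.00456), was lower in sgNT than in crNT (-0.41 ± 0.08, adjusted p = 0.00156) and passed for the difference of the guide effects (0.45 ± 0.12, adjusted p = 0.0498). The reads counted without regard to strand were 40.5% of those counted on the separate strands. With forward- and reverse-strand counts sgNT minus crNT shrank to -0.16 and -0.14 and was not called (adjusted p = 0.399 and 0.455). The difference of the guide effects shrank to 0.065 and 0.0036 (adjusted p = 0.880 and 0.995). The guide effect with dCasMINI-VPR went from 0.067 (adjusted p = 0.802) to -0.28 and -0.34 (adjusted p = 0.236 and 0.0812). So with these counts the fall was of like size with both Cas proteins, though not called with dCasMINI-VPR. The value for crTet minus crNT stayed called, at -0.35 and -0.34 (adjusted p = 0.0403 and 0.0222). Without sgNT replicate 2 or crNT replicate 1, sgNT minus crNT was not called either (0.169 and 0.0541), and crTet minus crNT was lost without crNT replicate 1 (0.121), crNT replicate 2 (0.0509) or crTet replicate 2 (0.0801).
The difference of the guide effects on SLC39A9 was lost in all but 3 of its leave-outs (adjusted p = 0.393 without sgNT replicate 2, 0.289 and 0.183 without crNT replicates 1 and 2, 0.0763 and 0.167 without crTet replicates 1 and 2), and with DESeq2 size factors in edgeR (0.0513), library size alone (0.0645) or the length and GC trend removed (0.0768).

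SLC39A14, a ZIP transporter of zinc, iron and manganese, and SLC39A10, a plasma membrane ZIP, were lower in sgNT than in crNT. SLC39A14 stood at 134.1 and 124.2 CPM in sgNT against 151.9 and 160.1 in crNT (-0.27 ± 0.08, adjusted p = 0.0320). SLC39A10 stood at 95.2 and 94.8 against 109.9 and 120.4 (-0.28 ± 0.09, adjusted p = 0.0404). Each call was lost without any 1 of these 4 libraries (adjusted p from 0.0685 to 0.398 for SLC39A14 and from 0.115 to 0.419 for SLC39A10). For SLC39A14 it was also lost with forward-strand (0.0817) and reverse-strand counts (0.0511), and for SLC39A10 with forward-strand counts (0.164), the length and GC trend removed (0.0896) and DESeq2 (0.0504).

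**Figure D4:**
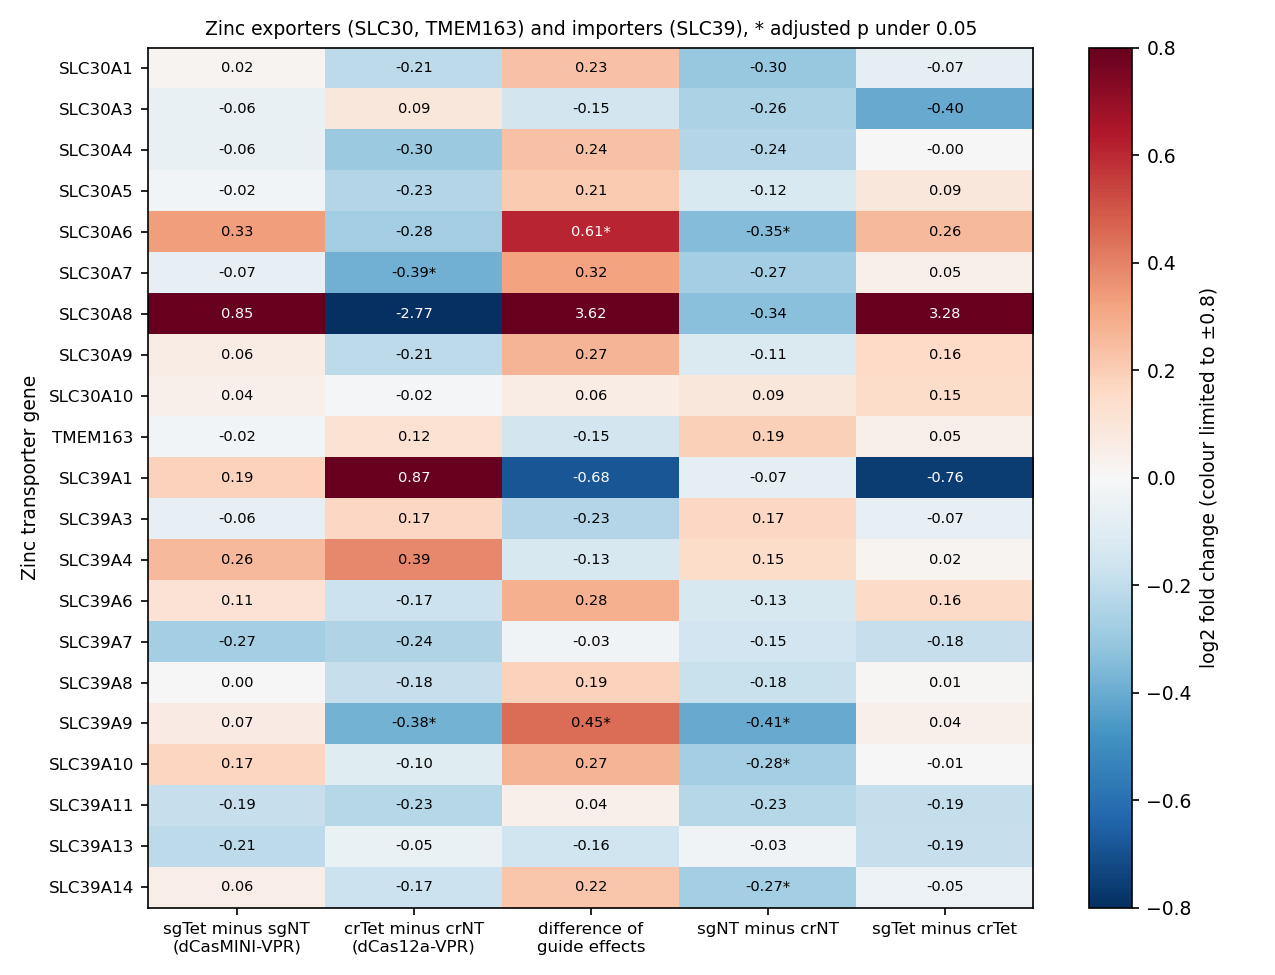
Log2 fold changes of SLC30A1, the other tested zinc exporters and the tested importers (rows) in the 5 comparisons (columns), with colour limited to ± 0.8 and asterisks where the adjusted p was under 0.05. The asterisks lie in crTet minus crNT, the difference of the guide effects and sgNT minus crNT, and none in the 2 comparisons that leave crNT out.

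With dCasMINI-VPR no exporter or importer was called for the guide effect by edgeR, against 0.795% of all genes, or by DESeq2, which gave an adjusted p for 6 of the 9 exporters and 10 of the 11 importers, and 1 exporter and 1 importer had an unadjusted p under 0.05. Between sgTet and crTet none was called either by edgeR (4.28% of all genes were) or by DESeq2, with an adjusted p for 8 exporters and 10 importers, and 3 exporters and 2 importers had an unadjusted p under 0.05. The median log2 change of the exporters was -0.23 for crTet minus crNT and -0.24 for sgNT minus crNT, and that of the importers -0.17 and -0.15. These comparisons share the crNT libraries, in which 14.4% and 12.7% of reads were unmapped, and the part of that in the values was not tested. The largest fitted change in the plot of the transporters, SLC30A8, a zinc transporter of insulin granules, rests on 50 reads in all, of which 2 were in crTet, and was not called.

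The genes whose levels ran most alike over the 8 libraries were sought among 12675 genes, by Pearson's r of log2 CPM and with no p. MT2A and MT1F were each scaled to the same spread over the libraries and then averaged, so both weighed the same. For that mean the genes most alike were CREB3L1 (0.992), TBC1D8 (0.973), RIN2 (0.972), HARBI1 (0.957), NHSL1 (0.946) and TLE2 (0.945). For SLC30A1 they were MEGF9 (0.975), NR1D2 (0.973), ALDH1L2 (0.972), ALDH6A1 (0.969), FBLN5 (0.969) and NUMB (0.962). For MTF1 they were UNC5B (0.927), PYGB (0.924), TOM1 (0.916), MLLT6 (0.915), DHX16 (0.908) and NISCH (0.905). MT2A and MT1F themselves had an r of 0.616, and SLC30A1 and MT2A one of 0.474. These are the highest of 12675 values of r over 8 libraries each, and the values of a library share its depth.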

How the data were processed

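Poly(A)-selected mRNA of 8 libraries was sequenced. Per the submitters' processing notes the authors used STAR and hg38. They deposited raw counts with no normalization, 1 file per library, with a strand-blind column and a column for each strand. The STAR version, gene annotation and read length are not given in the sources used here. The strand-blind count column was used, since the strand columns split reads about evenly. Unmapped, multimapping (3.54% to 5.64% of reads), ambiguous (10.4% to 11.2%) and no-feature reads name no gene and entered neither library sizes nor tests. Positions came from GENCODE 29.

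Counts were fitted with edgeR 4.0.16 (robust quasi-likelihood, TMM, filterByExpr by group) in R 4.3.3, as 1 model of 8 libraries and 4 group means. This tested 16606 genes, with a common biological coefficient of variation of 8.04%, 4 residual and 28.9 prior degrees of freedom. Tests were two-sided. A call is an adjusted p under 0.05, by Benjamini-Hochberg across every gene tested. SE is the size of the log2 fold change over the square root of F. CPM use TMM-adjusted totals of gene reads. An exact permutation test of 2 against 2 libraries cannot reach 0.05, so none was run. The pipeline was tested on simulated counts.

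The members, gene lists, tests and alternatives were chosen with earlier results of these data known. Named genes were all 8 members, EGFP, up to 4 called genes per list and comparison by smallest adjusted p, and the 6 genes most alike in pattern. SLC30A8, the unexpressed metallothioneins and the cell type markers were named outside that rule. Alternatives were DESeq2 1.42.0, its size factors in edgeR, library size alone, no filter, each strand's counts, removal of a length and GC trend, a replicate block, the compared libraries alone and leaving out each library. Replicate numbers were not taken to pair the libraries, though same-numbered libraries deviated together in part.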

Additional observations from a re-analysis of the deposited data

Results flagged for a closer look

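In 5 of the 58 genes tested among the members and lists, against 1.35% of all genes, the Tet guide effect differed between the Cas proteins by the test of that difference (edgeR, dCasMINI-VPR minus dCas12a-VPR, in log2). The lists were chosen with earlier results of these data known, so these shares were not tested against each other and show no enrichment. In the zinc transporters SLC30A6 (0.61, adjusted p = 0.0201) and SLC39A9 (0.45, adjusted p = 0.0498) the calls were lost in the alternatives given with them above, and with forward- and reverse-strand counts that of SLC39A9 shrank to 0.065 and 0.0036. DUSP1, a phosphatase of MAP kinases and a glucocorticoid-responsive gene, had a difference of -1.25 (adjusted p = 1.24e-08), which was called in all alternatives run. Its levels were 239.7 and 261.2 CPM for sgNT, 270.4 and 260.6 for sgTet, 134.0 and 162.5 for crNT, and 358.7 and 388.6 for crTet, so the crNT libraries were the lowest and crTet the highest. Of all genes, 52.6% did not overlap between crTet and crNT, 55.2% between sgNT and crNT, and 44.5% between sgTet and crTet.

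SLC31A1, the copper importer of the plasma membrane, had a difference of 0.57 (adjusted p = 0.00555), lost without sgNT replicate 2 (0.120) or crNT replicate 1 (0.107). It stood at 172.2 and 161.1 CPM in crNT and at 118.2 to 134.1 in the other 6 libraries. Of all genes, 55.2% did not overlap between sgNT and crNT, and 52.6% between crTet and crNT. FTH1, the ferritin heavy chain, had a difference of -0.60 (adjusted p = 0.00848). Its strand-blind reads were 18.7% of those on the separate strands, and with forward- and reverse-strand counts the difference shrank to -0.11 and -0.17 and was not called (adjusted p = 0.652 and 0.476). The call was also lost without sgNT replicate 1 (0.0662), crNT replicate 1 (0.0866) or crTet replicate 2 (0.0546). Each of these differences uses the crNT libraries, with 14.4% and 12.7% of reads unmapped, and the part of that in them was not tested.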

How the results depend on the processing

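The 4 tested members kept the count of calls in each comparison except as follows. With no filter on low counts the guide effect with dCasMINI-VPR called 1 member (MT2A) in place of 0. For sgNT minus crNT, reverse-strand counts called 0 in place of 1, and the fit of the 4 compared libraries and the replicate block called 2 (MT2A and SLC30A1). Leaving out each library gave 0 to 1 calls for the guide effect with dCasMINI-VPR and for the difference of the guide effects, and 0 to 2 for sgNT minus crNT. With 2 libraries a group, a library left alone is assumed to vary like the other groups.

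Member differences that changed sign were all small against their error and none was called. For the guide effect with dCasMINI-VPR these were MT1F with reverse-strand counts (-0.43), SLC30A1 with library size alone (-0.019), reverse-strand counts (-0.020) and the length and GC trend removed (-0.056), and MTF1 with forward-strand counts (0.16). With dCas12a-VPR they were MT2A with that trend removed (-0.0015) and MTF1 with forward-strand counts (0.068). For the difference of the guide effects they were MT1F with forward-strand counts (0.36) and the trend removed (0.016), and MTF1 with reverse-strand counts (-0.012) and the trend removed (-0.0080). With forward-strand counts MTF1 was -0.014 for sgNT minus crNT and SLC30A1 0.018 for sgTet minus crTet. The cause was not tested.

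Leaving out each library turned the sign in these ranges: for the guide effect with dCasMINI-VPR, MT1F -0.19 to 0.51, SLC30A1 -0.062 to 0.10 and MTF1 -0.19 to 0.079, with dCas12a-VPR, MTF1 -0.25 to 0.070, for the difference, MT1F -0.47 to 0.22 and MTF1 -0.13 to 0.19, for sgNT minus crNT, MTF1 -0.00091 to 0.12, and for sgTet minus crTet, MT2A -0.33 to 0.015, SLC30A1 -0.16 to 0.0062 and MTF1 -0.061 to 0.25.

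Counts over all genes moved by more than 1.5 times in these settings. The guide effect with dCasMINI-VPR called 132 genes, but 276 with no filter, 219 with the trend removed, 84 with its 4 libraries alone and 50 to 1475 leaving out a library (1475 without sgTet replicate 2). With dCas12a-VPR 1049 became 661 (forward-strand counts), 1785 (4 libraries) and 135 to 1965. The difference of the guide effects went from 224 to 450 (no filter), 106 (forward-strand counts) and 28 to 1835. For sgNT minus crNT 1276 became 2968 (4 libraries) and 333 to 2143, and for sgTet minus crTet 711 became 444 (forward-strand counts), 1193 (trend removed), 317 (4 libraries) and 331 to 2150.

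Same-numbered replicates deviated together only in part (pair correlations from -0.119 to 0.243 over 10170 genes), so the numbers were not taken to pair the libraries. The replicate block moved the difference of the guide effects to 400 called genes, and a block within construct to 347, and for members it changed only SLC30A1 in sgNT minus crNT (-0.30, adjusted p = 0.0498). Depth limits MT1X, MT1E, MT1G and MT1M, at 0 to 7 reads in each library.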

Other observations

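Metals other than zinc, oxidative stress and glucocorticoids also act on metallothionein genes, and their genes were counted by list. Of 12 copper genes 10 were tested. With dCas12a-VPR (6.32% of all genes called) SLC31A1 fell in crTet relative to crNT (edgeR, -0.48, adjusted p = 1.98e-04), a call kept in all alternatives run, and ATOX1, the copper chaperone, rose (0.42, adjusted p = 0.0287). The ATOX1 call was lost without crNT replicate 1 (0.246), crNT replicate 2 (0.180) or crTet replicate 2 (0.27, adjusted p = 0.389), and with forward-strand (0.0593) or reverse-strand counts (0.160). In sgNT relative to crNT (7.68% called) SLC31A1 was lower (-0.41, adjusted p = 5.87e-04), as was the copper-exporting ATPase ATP7A (-0.55, adjusted p = 0.00384). Without sgNT replicate 2 or crNT replicate 1 the SLC31A1 call was lost (0.0679 and 0.0584). The ATP7A call was lost without sgNT replicate 1 (0.118) or crNT replicate 1 (0.145) and with reverse-strand counts (0.0603). No copper gene was called by edgeR or DESeq2 for the guide effect with dCasMINI-VPR (0.795% of all genes called) or between sgTet and crTet (4.28%), though 3 had an unadjusted p under 0.05 in each.

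All 15 NRF2 and oxidative stress genes were tested, and the list did not move one way. In crTet relative to crNT, FTH1 (0.58) and thioredoxin, TXN (0.25), rose and SLC7A11, the cystine importer, fell (-0.49). The FTH1 value shrank to 0.081 and 0.11 with forward- and reverse-strand counts and was not called (adjusted p = 0.582 and 0.456). The TXN call was lost in 5 of 8 leave-outs (0.0522 to 0.472) and with the length and GC trend removed (0.14, adjusted p = 0.134). The SLC7A11 call was lost without crNT replicate 1 (0.252), crNT replicate 2 (0.131) or crTet replicate 2 (0.246), and with reverse-strand counts (-0.15, adjusted p = 0.689). Between sgNT and crNT SLC7A11 was lower (-0.73, adjusted p = 4.86e-04), which was not called with sgNT replicate 2 left out (adjusted p = 0.0792) or with reverse-strand counts (-0.48, adjusted p = 0.0634). In sgTet relative to crTet (4.28% of all genes called) FTH1 (-0.54) and the heme oxygenase HMOX1 (-0.37) were lower and GCLM, of glutathione synthesis, higher (0.40). The FTH1 value shrank to -0.13 and -0.17 with forward- and reverse-strand counts (adjusted p = 0.336 and 0.220). The HMOX1 call was lost in 7 of 8 leave-outs (0.0594 to 0.182), with forward-strand counts (0.255), with the trend removed (0.110) and in the fit of the 4 libraries alone (0.157). The GCLM call was lost without sgTet replicate 1 (0.117) or crTet replicate 2 (0.160), with forward-strand counts (0.0592) and in the fit of the 4 libraries alone (0.0748). No gene of this list was called by edgeR for the guide effect with dCasMINI-VPR (0.795% of all genes were), nor any of the 13 with an adjusted p by DESeq2, where 2 had an unadjusted p under 0.05.

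All 9 glucocorticoid-responsive genes were tested. Called shares of all genes were 6.32% for crTet minus crNT, 7.68% for sgNT minus crNT and 4.28% for sgTet minus crTet. DUSP1 rose in crTet relative to crNT (1.33, adjusted p = 6.19e-13), was higher in sgNT than in crNT (0.76) and lower in sgTet than in crTet (-0.49), calls kept in all alternatives run. KLF9 rose in crTet relative to crNT (0.37), PER1 was higher in sgNT than in crNT (0.34), and TSC22D3 was lower in sgTet than in crTet (-0.24). The KLF9 call was lost without any 1 of its 4 libraries (adjusted p from 0.0761 to 0.226) and with forward-strand (0.0641) or reverse-strand counts (0.0767). PER1 was not called with sgNT replicate 2 left out (0.22, adjusted p = 0.496), or crNT replicate 1 (0.451) or crNT replicate 2 (0.0524), with library size alone (0.0534), with forward-strand (0.0828) or reverse-strand counts (0.0535) and with the trend removed (0.17, adjusted p = 0.217). The TSC22D3 call was lost in 7 of 8 leave-outs (0.0677 to 0.156), with forward-strand (0.143) or reverse-strand counts (0.0642), with the trend removed (0.0551) and in the fit of the 4 libraries alone (0.221). For the guide effect with dCasMINI-VPR none of this list was called by edgeR (0.795% of all genes were), nor any of the 8 with an adjusted p by DESeq2, and none had an unadjusted p under 0.05. All comparisons with crNT share its libraries.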
